A study of Homo sapiens with 27 samples.

Results

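Acute-phase genes are the genes whose plasma proteins rise or fall when inflammatory cytokines reach the liver. The members described here were 7 genes of that class, SERPINA1, SERPINA3, SAA1, SAA2, LCN2, HP and CP, chosen by gene symbol among 36536 genes. They were followed through 9 groups of MCF10A cells, an established non-tumorigenic line of human mammary epithelium, with 3 RNA-seq libraries per group and 27 in all. The 7 symbols matched 9 of the 40487 deposited rows, and rows that shared a symbol were summed.

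All groups came from cells grown with epidermal growth factor (EGF) at 20 ng/ml, horse serum, hydrocortisone, cholera toxin and insulin, and then held for 18 h without growth factors. The T0 group was collected at that point (0 h), and the other 8 groups 24 h later. PBS cells received phosphate-buffered saline. The single-ligand groups received EGF, oncostatin M (OSM) or transforming growth factor β (TGFB) at a dose of 10 ng/ml, and the rest received EGF+OSM, EGF+TGFB, OSM+TGFB or EGF+OSM+TGFB at the same dose of each. The study asked how the response to combined ligands relates to the responses to single ligands. The labels number the libraries of a group 1 to 3 without saying that they came from separate cultures, so p-values measure the spread between these libraries, which may be technical.

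OSM belongs to the interleukin-6 family and signals through the receptor chains OSMR and gp130 (IL6ST) to JAK kinases and the transcription factor STAT3. In the liver this route, together with C/EBP and NF-κB factors, switches on the acute-phase genes, and SOCS3 feeds back to limit it. Several of these genes are also active outside the liver, in surface epithelia and in the mammary gland, above all around weaning and in inflammation. SERPINA1 and SERPINA3 encode the protease inhibitors α1-antitrypsin and α1-antichymotrypsin. SAA1 and SAA2 encode serum amyloid A, an apolipoprotein of high-density lipoprotein. HP encodes haptoglobin, which binds free haemoglobin, CP the copper ferroxidase ceruloplasmin, and LCN2 lipocalin 2, which withholds iron by binding bacterial siderophores.

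The promoters of 3 members were in the RefSeq promoter table (GRCh38.p14), as 4 windows of 300 bases from 250 before to 50 after the start site. SAA1, SAA2, HP and CP had no window in that table, so these 3 genes are shown because they were available and not for their responses. Capitals mark letters that match one of 4 motifs searched on both strands, STAT (TTCNNNGAA), C/EBP (TTGCNNAA), NF-κB (GGG and CC with 5 bases of any kind between them) and AP-1 (TGANTCA). Each window is written 5′ to 3′ on the strand of its gene.
LCN2 promoter, chr9:128149203-128149502 (plus strand): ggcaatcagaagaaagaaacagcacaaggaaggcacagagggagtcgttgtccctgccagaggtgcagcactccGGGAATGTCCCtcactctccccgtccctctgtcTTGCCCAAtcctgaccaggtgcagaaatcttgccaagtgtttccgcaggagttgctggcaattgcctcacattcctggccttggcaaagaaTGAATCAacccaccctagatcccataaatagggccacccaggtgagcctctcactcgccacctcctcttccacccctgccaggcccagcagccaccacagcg
SERPINA1 promoter, chr14:94388553-94388852 (minus strand): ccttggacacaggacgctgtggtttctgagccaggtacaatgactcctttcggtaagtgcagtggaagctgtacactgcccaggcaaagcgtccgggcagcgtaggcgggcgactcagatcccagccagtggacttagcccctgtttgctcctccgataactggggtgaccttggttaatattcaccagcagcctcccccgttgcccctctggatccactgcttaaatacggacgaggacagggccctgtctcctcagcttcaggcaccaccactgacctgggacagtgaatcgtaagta
SERPINA1 promoter, chr14:94390586-94390885 (minus strand): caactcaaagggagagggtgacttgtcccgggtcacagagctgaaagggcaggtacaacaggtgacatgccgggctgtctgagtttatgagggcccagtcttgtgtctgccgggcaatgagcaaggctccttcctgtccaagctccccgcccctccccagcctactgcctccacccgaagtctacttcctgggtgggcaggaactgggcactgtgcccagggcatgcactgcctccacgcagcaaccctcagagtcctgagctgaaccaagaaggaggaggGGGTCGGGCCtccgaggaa
SERPINA3 promoter, chr14:94612141-94612440 (plus strand): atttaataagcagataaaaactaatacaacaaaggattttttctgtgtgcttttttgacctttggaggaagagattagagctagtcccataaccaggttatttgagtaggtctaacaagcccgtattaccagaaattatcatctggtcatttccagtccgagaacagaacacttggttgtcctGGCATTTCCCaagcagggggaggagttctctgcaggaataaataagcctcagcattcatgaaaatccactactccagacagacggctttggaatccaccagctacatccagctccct
In the LCN2 window the 11 capitals that begin 176 bases before the start site hold the NF-κB letters on both strands, in overlapping matches. The C/EBP letters TTGCCCAA begin 143 bases and the AP-1 letters TGAATCA 52 bases before the start site. The SERPINA3 window held NF-κB letters on its opposite strand, beginning 67 bases before the start site. Of the 2 SERPINA1 windows, the one at chr14:94390586-94390885 held NF-κB letters from base 32 after the start site, counted with the start site as 1, and the other held none of the 4 motifs. The STAT letters were in none of the 4 windows. Among the 35116 promoters of the table, 7.66% held the STAT letters, 10.5% C/EBP, 58.7% NF-κB and 7.71% AP-1. A match is a description of letters, and the data hold no measurement of binding.

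The shallowest library held 30.1 M (mega) counts, the deepest 52.9 M, and the median library 39.5 M. Levels are given in CPM, that is counts per 1 M counts of the scaled library size. Of 10 fixed epithelial markers, 9 had a mean of at least 1 CPM over the 27 libraries, with a summed level of 9970 to 23418 CPM per library. Of 9 hepatocyte markers, 0 had such a mean, and their summed level was 0.171 to 5.58 CPM. It was lower in the OSM libraries (0.333 to 0.567 CPM) than in the PBS libraries (1.61 to 1.90 CPM). Of 8 leukocyte markers 3 had such a mean, with a summed level of 101 to 111 CPM in PBS and 113 to 143 CPM in OSM. Of 7 fibroblast markers 2 and of 5 endothelial markers 1 had such a mean. These lists summed to 87.8 to 110 and 3.16 to 3.93 CPM in OSM, against 129 to 133 and 31.3 to 35.3 CPM in PBS. At least 1 marker of each of the hepatocyte, leukocyte, fibroblast and endothelial lists was at or near 0 in the OSM libraries. For example, ALB (hepatocyte) held 0, 0 and 1 counts and PTPRC (leukocyte) 6, 5 and 4. COL3A1 (fibroblast) held 0, 1 and 0 and CDH5 (endothelium) 0, 0 and 0. Other leukocyte, fibroblast and endothelial markers went either way with OSM against PBS (edgeR adjusted p under 0.05). Higher were CD14 (log2 1.03), CD68 (0.58), LUM (3.16), PECAM1 (0.74) and TEK (3.73). Lower were CSF1R (-1.09), ITGAM (-2.54), COL1A1 (-0.58), DCN (-0.33), KDR (-4.31) and VWF (-5.57). The leukocyte sum lay mainly in CD14 and CD68, the fibroblast sum in DCN and COL1A1 and the endothelial sum in KDR. Of the 9 hepatocyte markers, 4 are also in the list of negative acute-phase proteins.

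Together the 7 members took 0.149% ± 0.0206 of all counts in PBS, 0.496% ± 0.131 in OSM and 0.0248% ± 0.00341 in EGF (SD, n = 3). Compared per kilobase of their annotated transcripts, the level in PBS was highest for SAA1 (1090 ± 165 CPM per kb), followed by SERPINA3 (373 ± 68.7), SAA2 (231 ± 37.7) and LCN2 (70.2 ± 15.6). SERPINA1 stood at 5.17 ± 0.197 and HP at 0.0375 ± 0.0334 CPM per kb. In OSM the order of the per-kilobase levels was SERPINA3 (1782 ± 643), SAA1 (1501 ± 430), SAA2 (803 ± 289), SERPINA1 (304 ± 7.97), HP (49.4 ± 17.5) and LCN2 (33.3 ± 17.6). SAA1 was summed from 2 rows with identical values; taken from 1 of them it would stand at 751 ± 215 CPM per kb in OSM, below the mean of SAA2.

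**Figure D1:**
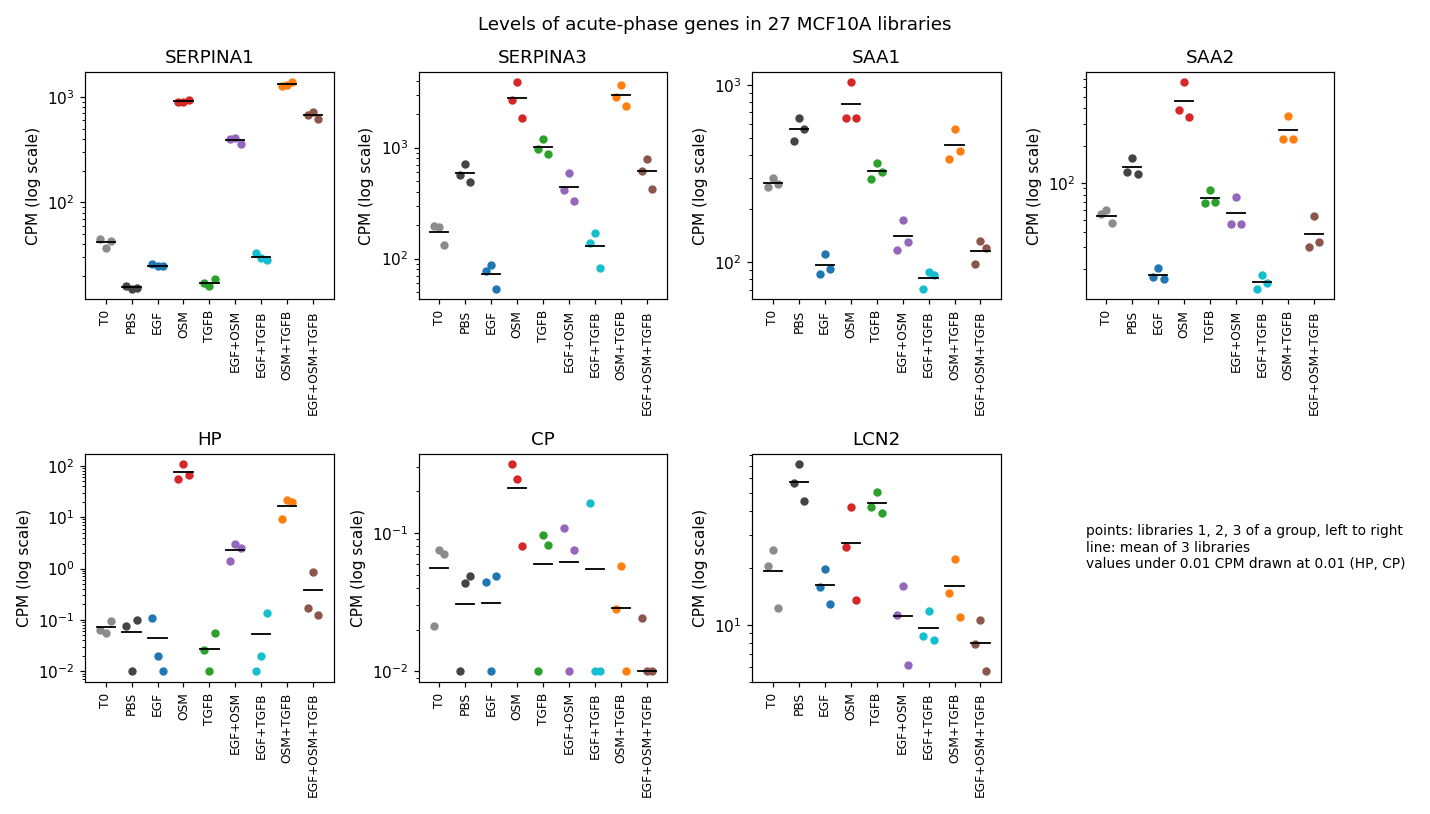
Level of each of the 7 genes in every library, in CPM on a log axis, by group; points are the 3 libraries of a group and lines their mean. SERPINA1 separates the 4 groups with OSM from the 5 without it, HP and CP are highest in OSM, SERPINA3, SAA1 and SAA2 are lower in each group with EGF than in the same group without it, and LCN2 is highest in PBS.

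With OSM alone, 5 of the 6 members that could be tested were higher than in PBS and LCN2 was lower. CP had too few counts to be tested in any comparison. A gene was called when its Benjamini-Hochberg adjusted p in edgeR's quasi-likelihood test was under 0.05, and by that rule 63.4% of the 15575 genes tested were called for OSM against PBS. HP passed the filter on low counts through the groups with OSM and had to differ there, so it adds nothing to this count, and the other 5 called members are to be read against that share. In these bulk libraries a lower level in each cell and fewer cells of a kind that makes the RNA cannot be told apart.

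SERPINA1 was the member with the tightest replicates. It was at 16.2, 15.01 and 15.4 CPM in the 3 PBS libraries and at 901, 897 and 940 CPM in the OSM libraries. Every OSM library was far above every PBS library. The log2 fold change was 5.88 ± 0.08 (SE; edgeR adjusted p = 5.2e-26), or 58.7-fold. OSM also raised SERPINA1 when added to EGF (log2 3.95 ± 0.08), to TGFB (6.26 ± 0.09) and to EGF+TGFB (4.47 ± 0.08). The gene lies on chromosome 14 from 94376747 to 94390693 on the minus strand (GENCODE v44, GRCh38).

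The order of the SERPINA1 levels was OSM+TGFB (1324 ± 55.3 CPM), OSM (912 ± 23.9), EGF+OSM+TGFB (669 ± 49.7), EGF+OSM (389 ± 26.2), T0 (41.6 ± 4.03), EGF+TGFB (30.2 ± 2.26), EGF (25.1 ± 0.705), TGFB (17.3 ± 1.42) and PBS (15.5 ± 0.592; SD, n = 3). All neighbours in this order were apart, with no overlap of their libraries, except TGFB and PBS, which overlapped and were not called (log2 0.15 ± 0.08, edgeR adjusted p = 0.134). This symbol is carried by 2 rows. The larger one held 71.1 to 74.1% of the gene's counts in the 12 libraries with OSM and 57.7 to 73.3% in the 15 without.

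SERPINA3, also on chromosome 14 (94612384 to 94624055, plus strand), started from a much higher level. It was at 569, 704 and 490 CPM in PBS and at 2692, 3875 and 1859 CPM in OSM. The groups did not overlap, but the OSM libraries differed 2.08-fold among themselves. The log2 fold change was 2.26 ± 0.33 (SE; edgeR adjusted p = 5.0e-06), or 4.78-fold. OSM also raised SERPINA3 over EGF (2.61 ± 0.33), TGFB (1.56 ± 0.32) and EGF+TGFB (2.22 ± 0.33).

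Replicate 2 was the highest library for SERPINA3 in 8 of 9 groups and replicate 3 the lowest in 9 of 9. The same order of libraries recurred for LCN2, where replicate 2 was the highest and replicate 3 the lowest in 9 of 9 groups, and replicate 2 was also the highest in 9 of 9 groups for SAA1 and SAA2. SERPINA1 showed no such order, its highest library being replicate 1 in 4 groups, replicate 2 in 2 and replicate 3 in 3. Levels of SERPINA3 fell into the order OSM+TGFB (2970 ± 675 CPM), OSM (2809 ± 1013), TGFB (1010 ± 163), EGF+OSM+TGFB (610 ± 182), PBS (587 ± 108), EGF+OSM (445 ± 131), T0 (174 ± 35.8), EGF+TGFB (130 ± 44.3) and EGF (73.0 ± 17.8; SD, n = 3). The libraries of OSM+TGFB and OSM overlapped, as did those of EGF+OSM+TGFB, PBS and EGF+OSM taken in turn, T0 and EGF+TGFB, and EGF+TGFB and EGF.

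About 30.3% of the 31-base words of SERPINA3 transcripts are shared with an overlapping gene model, ENSG00000273259. Its row in the table summed to 5356 counts over the 27 libraries, and how reads were divided between these rows is uncertain. SERPINA1 shared 0.268% of its words with any other gene.

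The serum amyloid A genes lie close together on chromosome 11, SAA1 from 18266260 to 18269977 on the plus strand and SAA2 from 18239223 to 18248668 on the minus strand. The log2 fold change with OSM was larger for SAA2 than for SAA1, a difference that was not tested. SAA2 was at 123, 158 and 118 CPM in PBS and at 391.5, 653 and 344 CPM in OSM, with all OSM libraries above all PBS libraries. Its log2 fold change was 1.80 ± 0.26 (SE; edgeR adjusted p = 4.3e-06), or 3.48-fold. SAA1 was at 482, 652 and 561 CPM in PBS and at 651, 1035 and 647 CPM in OSM.

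For SAA1 the groups overlapped, and only OSM replicate 2 was well above the PBS libraries. The log2 fold change was 0.46 ± 0.19 (SE; edgeR adjusted p = 0.0397). The call was lost without OSM replicate 2 (log2 0.20, adjusted p = 0.351), PBS replicate 1 (0.36, adjusted p = 0.154), PBS replicate 3 (0.46, adjusted p = 0.0830) or EGF+TGFB replicate 3 (0.43, adjusted p = 0.0568). It was also lost with size factors by relative log expression (adjusted p = 0.0503), upper-quartile scaling (0.0632), no filter on low counts (0.0913) or only the OSM and PBS libraries in the fit (0.0889). SAA1 was higher on adding OSM to EGF (0.54 ± 0.19) and to TGFB (0.48 ± 0.19), and was not called on adding it to EGF+TGFB (0.51 ± 0.20, edgeR adjusted p = 0.0592). Those calls were lost without EGF+OSM replicate 2 (0.36, adjusted p = 0.200) and without OSM+TGFB replicate 2 (0.30, adjusted p = 0.221), among others.

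SAA2 was higher on adding OSM to EGF (log2 1.64 ± 0.28), to TGFB (1.83 ± 0.26) and to EGF+TGFB (1.29 ± 0.29). Levels of SAA2 were ordered OSM (463 ± 167 CPM), OSM+TGFB (266 ± 69.5), PBS (133 ± 21.7), TGFB (75.0 ± 10.0), EGF+OSM (56.3 ± 17.2), T0 (54.1 ± 6.26), EGF+OSM+TGFB (38.7 ± 12.7), EGF (18.0 ± 1.95) and EGF+TGFB (15.6 ± 2.12; SD, n = 3). Neighbours overlapped in this order except OSM+TGFB and PBS, PBS and TGFB, and EGF+OSM+TGFB and EGF. Levels of SAA1 were ordered OSM (778 ± 223 CPM), PBS (565 ± 85.3), OSM+TGFB (456 ± 95.7), TGFB (327 ± 33.5), T0 (280 ± 17.1), EGF+OSM (140 ± 29.3), EGF+OSM+TGFB (117 ± 17.4), EGF (96.5 ± 13.4) and EGF+TGFB (81.5 ± 9.52; SD, n = 3). For SAA1 the neighbours that did not overlap were OSM+TGFB and TGFB, and T0 and EGF+OSM.

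Within a library, the number of SAA2 counts per SAA1 count was 0.236 ± 0.0231 in PBS and 0.588 ± 0.0517 in OSM (SD, n = 3). It was 0.272 to 0.632 in the 12 libraries with OSM and 0.172 to 0.255 in the 15 without, with no overlap. Among the groups with OSM it was lower where EGF was present, at 0.398 ± 0.0423 in EGF+OSM and 0.328 ± 0.0687 in EGF+OSM+TGFB, against 0.581 ± 0.0416 in OSM+TGFB. This ratio was chosen after the values were seen and carries no test. The 2 genes share sequence: 39.5% of the 31-base words of SAA1 transcripts occur in SAA2 and 20.0% of those of SAA2 in SAA1, so how reads were divided between them is uncertain. SAA1 also had 2 rows with identical values, which were summed. Taken from 1 of these rows, SAA1 levels would be lower and the ratio higher by a factor of 2 in every library.

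**Figure D2:**
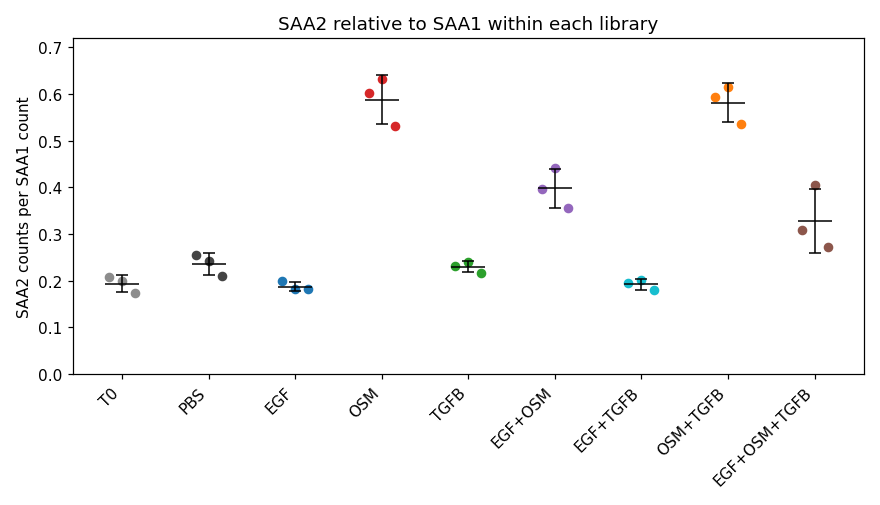
SAA2 counts per SAA1 count in every library, by group, with the mean and SD of 3 libraries. The 12 libraries with OSM lie at 0.272 to 0.632 and the 15 without OSM at 0.172 to 0.255.

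HP was nearly silent without OSM, and it passed the filter on low counts through the groups with OSM. Its counts were 3, 0 and 4 in PBS, and the 15 libraries of the 5 groups without OSM held 0 to 5 counts each. In OSM the 3 libraries held 1905, 4773 and 2495 counts, or 54.2, 106 and 67.4 CPM. The OSM and PBS libraries were therefore far apart. Summed over libraries, HP was 1422 times its level in PBS, with a counting interval of 690 to 3539 (exact, 95%, covering counting error only). Because HP was tested at all only through such libraries, this difference is given as a description, with no test.

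The other ligands lowered HP when given with OSM. HP was at 9.16, 21.1 and 19.4 CPM in OSM+TGFB, at 1.41, 3.05 and 2.45 CPM in EGF+OSM and at 0.171, 0.836 and 0.125 CPM in EGF+OSM+TGFB. These 3 groups and OSM did not overlap one another. With EGF added to OSM, HP was 32.6-fold lower (log2 -5.03 ± 0.36), and with TGFB added to OSM it was 4.59-fold lower (-2.20 ± 0.30). Adding EGF to OSM+TGFB gave -5.56 ± 0.50 and adding TGFB to EGF+OSM gave -2.73 ± 0.61. HP passed the filter through groups with OSM, so these differences too are given as descriptions. With all 3 ligands HP held 7, 24 and 4 counts and was not called against PBS (2.59 ± 1.28, edgeR adjusted p = 0.0746), although DESeq2 called it (2.70, adjusted p = 0.00484). HP (chromosome 16, 72054505 to 72061055, plus strand) shares 16.3% of its 31-base words with its neighbour HPR, a haptoglobin-related gene that held 1, 2 and 2 counts in the OSM libraries.

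CP (chromosome 3, 149162410 to 149221829, minus strand) held 0 to 11 counts in each of the 27 libraries. Its counts were 0, 2 and 2 in PBS, and 11, 11 and 3 in OSM. The libraries of these groups did not overlap, but OSM replicate 3 lay within the range of other groups. The ratio of the summed levels was 6.78 (exact 95% counting interval 2.34 to 26.8). In EGF+OSM the summed count was 7 and in OSM+TGFB it was 3.

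LCN2 (chromosome 9, 128149071 to 128153453, plus strand) was the member that OSM lowered. It was at 56.3, 70.9 and 45.4 CPM in PBS and at 25.9, 42.4 and 13.6 CPM in OSM. The groups did not overlap, but the OSM libraries differed 3.12-fold among themselves, the largest such ratio for LCN2. The log2 fold change was -1.07 ± 0.36 (SE; edgeR adjusted p = 0.0152), or 2.10-fold lower. The call was lost without OSM replicate 3 (-0.75, adjusted p = 0.0850) or PBS replicate 2 (-0.89, adjusted p = 0.0652).

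Adding OSM to TGFB also lowered LCN2 (log2 -1.46 ± 0.38, edgeR adjusted p = 0.00284). Adding it to EGF (-0.54 ± 0.39, adjusted p = 0.318) or to EGF+TGFB (-0.28 ± 0.43, adjusted p = 0.695) gave no call. Levels of LCN2 were ordered PBS (57.5 ± 12.8 CPM), TGFB (44.1 ± 5.86), OSM (27.3 ± 14.5), T0 (19.2 ± 6.37), EGF (16.2 ± 3.41), OSM+TGFB (16.1 ± 5.85), EGF+OSM (11.2 ± 4.98), EGF+TGFB (9.64 ± 1.97) and EGF+OSM+TGFB (8.06 ± 2.48; SD, n = 3). All neighbours in this order overlapped. LCN2 shared no 31-base word with another gene.

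Counted over the other additions of OSM, 5 of 6 members were higher and 0 lower on adding it to EGF, where 34.9% of all genes were called. On adding OSM to TGFB, 5 were higher and 1 lower (56.6% of all genes). On adding it to EGF+TGFB, 3 were higher and 0 lower (26.4%), the 3 being SERPINA1, SERPINA3 and SAA2. HP was among the members higher over EGF and over TGFB. It passed the filter on low counts through groups with OSM, so it adds nothing to those counts.

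**Figure D3:**
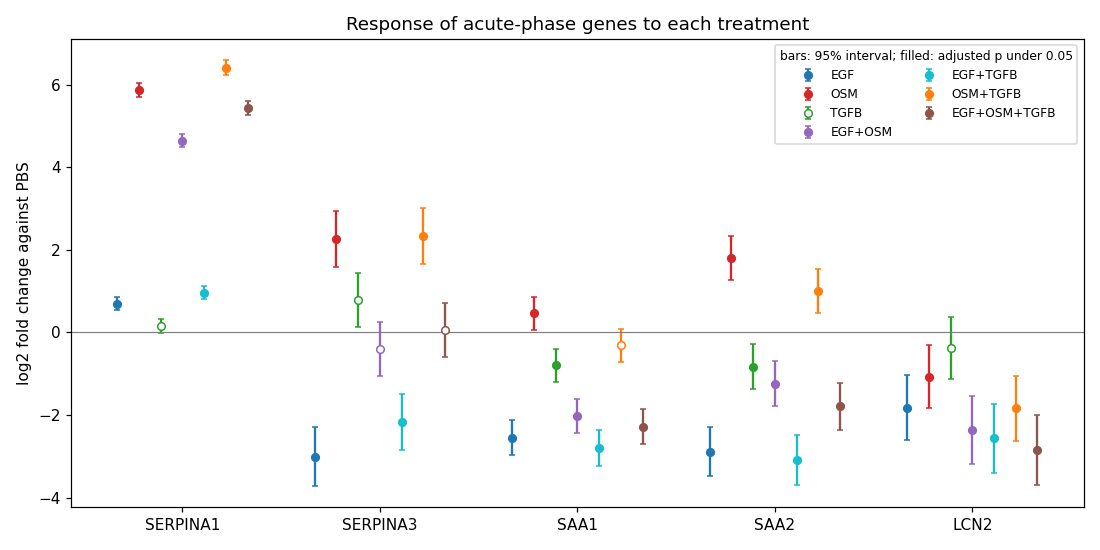
log2 fold change against PBS of 5 members under each of the 7 treatments, with 95% intervals from edgeR's fit over 27 libraries; filled points had an adjusted p under 0.05. SERPINA1 is above 4 in every treatment with OSM, and LCN2 is below 0 in every treatment.

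Against PBS, EGF alone lowered 4 members and raised 1, SERPINA1, while HP stayed at 0 to 5 counts per library. Of all genes, 73.5% were called for EGF against PBS. SERPINA3 was at 77.8, 87.9 and 53.2 CPM in EGF, all below its PBS libraries, a fall of 8.04-fold (log2 -3.01 ± 0.34, edgeR adjusted p = 1.3e-07). SAA2 was at 17.1, 20.2 and 16.7 CPM, 7.37-fold lower than in PBS (-2.88 ± 0.28). SAA1 was at 86.1, 112 and 91.6 CPM, 5.85-fold lower (-2.55 ± 0.20). LCN2 was at 15.96, 19.8 and 12.97 CPM, 3.53-fold lower (-1.82 ± 0.37). None of these 4 members had an EGF library within the range of its PBS libraries.

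SERPINA1 went the other way under EGF. It was at 25.9, 24.7 and 24.7 CPM, above all 3 PBS libraries, with a log2 fold change of 0.69 ± 0.08 (edgeR adjusted p = 9.2e-09), or 1.62-fold. EGF also raised SERPINA1 in the presence of TGFB (0.81 ± 0.08, adjusted p = 7.1e-10). With OSM present, adding EGF lowered it, by 2.35-fold over OSM (-1.23 ± 0.07, adjusted p = 2.8e-13) and by 1.98-fold over OSM+TGFB (-0.98 ± 0.07, adjusted p = 1.7e-11). In EGF+OSM the 3 libraries were at 404, 405 and 359 CPM, below all OSM libraries and above all EGF libraries.

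The difference between these responses was tested as a departure: from the combination's log2 fold change against PBS, those of its ligands given singly were subtracted, which leaves 0 where they add up. For SERPINA1 in EGF+OSM it was -1.92 ± 0.10 (edgeR adjusted p = 2.3e-13). The other tested members were not called by edgeR for this departure: SERPINA3 had 0.35 (95% interval -0.58 to 1.28), SAA1 0.08 (-0.49 to 0.64), SAA2 -0.16 (-0.93 to 0.62) and LCN2 0.53 (-0.59 to 1.65). HP had -4.73 (-9.87 to 0.41), a value that rests on the 7 counts in PBS and 6 in EGF. DESeq2 called it (-4.67, adjusted p = 0.00114). HP passed the filter on low counts through groups with OSM, so its value here is a description and that call adds nothing. The intervals of SERPINA3, SAA2 and LCN2 include departures of 0.5 in either direction. Of all genes, 38.7% were called for the departure of EGF+OSM.

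Adding EGF to OSM lowered 6 of 6 members (61.7% of all genes called). HP again adds nothing to that count, since it passed the filter through the groups with OSM. Besides HP and SERPINA1, SAA2 fell 8.21-fold (-3.04 ± 0.27), SERPINA3 6.30-fold (-2.66 ± 0.33), SAA1 5.55-fold (-2.47 ± 0.20) and LCN2 2.45-fold (-1.29 ± 0.39). The LCN2 call was lost without OSM replicate 2 (-0.81, edgeR adjusted p = 0.0890) and with only the groups compared in the fit (-1.29, adjusted p = 0.0677). In EGF+OSM, SERPINA3 was at 418, 588 and 330 CPM, which overlapped PBS (log2 -0.40 ± 0.31, edgeR adjusted p = 0.252). SAA1, at 117, 173 and 130 CPM, and SAA2, at 46.4, 76.2 and 46.3 CPM, were below all of their PBS libraries.

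On adding EGF to TGFB, 4 members were lower and SERPINA1 was higher (69.4% of all genes called). On adding EGF to OSM+TGFB, 5 were lower and 0 higher (52.2%), and HP, which again adds nothing to the count, was among the 5. LCN2 was not called there (-1.005 ± 0.42, edgeR adjusted p = 0.0527), although it was called under upper-quartile scaling (adjusted p = 0.0488) and DESeq2 (0.0218). The fall of SERPINA3 on adding EGF was -2.95 ± 0.34 over TGFB and -2.28 ± 0.33 over OSM+TGFB. For SAA1 these values were -2.003 ± 0.20 and -1.97 ± 0.20, and for SAA2 -2.26 ± 0.28 and -2.79 ± 0.27.

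**Figure D4:**
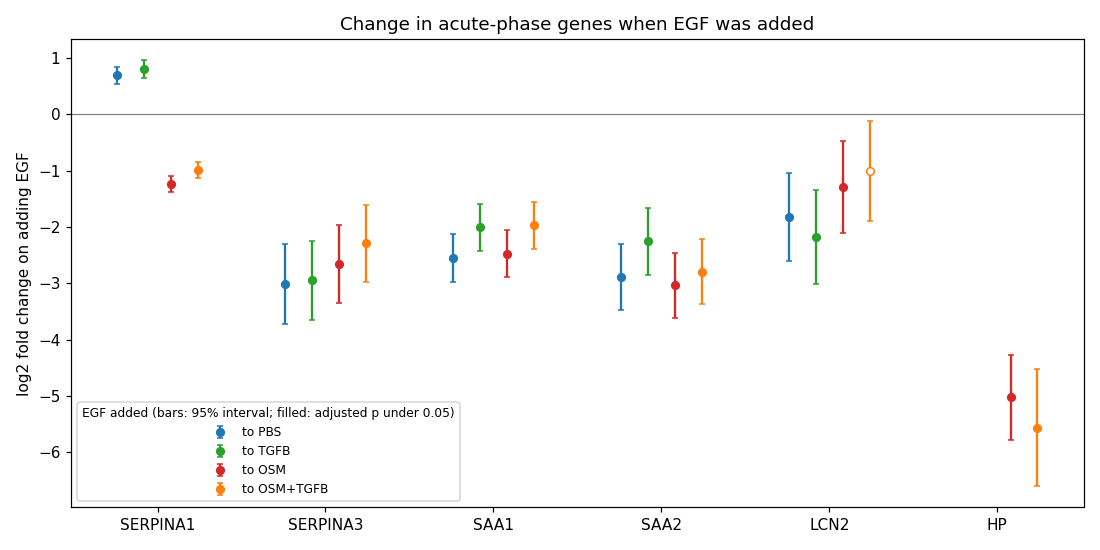
log2 fold change on adding EGF to PBS, TGFB, OSM or OSM+TGFB, with 95% intervals from edgeR's fit; filled points had an adjusted p under 0.05, and HP is drawn only where OSM was present. SERPINA1 is above 0 without OSM (0.69 and 0.81) and below 0 with it (-1.23 and -0.98), whereas the other members are below 0 throughout.

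TGFB alone lowered SAA1 and SAA2 and gave no call for the other 4 tested members, where 35.6% of all genes were called. SAA1 was at 295, 361 and 324 CPM, below all PBS libraries (log2 -0.79 ± 0.19, edgeR adjusted p = 0.00260). SAA2 was at 68.4, 86.5 and 70.05 CPM, also below all PBS libraries (-0.83 ± 0.26, adjusted p = 0.0161). The SAA2 call was lost without PBS replicate 2 (-0.68, adjusted p = 0.0761), TGFB replicate 1 (-0.76, adjusted p = 0.0618) or TGFB replicate 3 (-0.78, adjusted p = 0.0544). SERPINA3 was at 962, 1191 and 876 CPM, above all 3 PBS libraries, and was not called (0.78 ± 0.31, edgeR adjusted p = 0.0600). DESeq2 called it (adjusted p = 0.0380), as did the fit of only the groups compared (0.0207).

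On adding TGFB to OSM, SERPINA1 was higher and HP, SAA1 and SAA2 were lower (51.6% of all genes called). HP passed the filter through groups with OSM, so it adds nothing here or on adding TGFB to EGF+OSM. SERPINA1 was at 1279, 1307 and 1385 CPM in OSM+TGFB, above all OSM libraries (log2 0.54 ± 0.07, edgeR adjusted p = 2.4e-07). SAA1 differed by -0.77 ± 0.19 and SAA2 by -0.80 ± 0.25. The SAA2 call was lost without OSM replicate 2 (-0.47, adjusted p = 0.124), OSM+TGFB replicate 1 (-0.69, adjusted p = 0.0567) or OSM+TGFB replicate 3 (-0.70, adjusted p = 0.0541). On adding TGFB to EGF+OSM, SERPINA1 was higher (0.78 ± 0.07) and HP lower, 1 in each direction (61.1% of all genes). On adding TGFB to EGF, SERPINA1 (0.27 ± 0.07) and SERPINA3 (0.84 ± 0.32) were higher and 0 members lower (54.6%). That SERPINA3 call was lost without EGF+TGFB replicate 2 (0.60, edgeR adjusted p = 0.172), EGF+TGFB replicate 1 (0.79, 0.0787), EGF replicate 1 (0.89, 0.0577) or EGF replicate 3 (0.66, 0.139), and the SERPINA1 call was lost with rows as deposited (0.20, 0.0719).

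The combinations were also compared with PBS directly. In EGF+OSM, HP and SERPINA1 were higher and SAA1, SAA2 and LCN2 lower (77.2% of all genes called). In EGF+TGFB, SERPINA1 was higher and SERPINA3, SAA1, SAA2 and LCN2 lower (73.7%). In OSM+TGFB, HP, SERPINA1, SERPINA3 and SAA2 were higher and LCN2 lower (66.0%), and SAA1 was not called (-0.31 ± 0.19, edgeR adjusted p = 0.159). The HP calls in EGF+OSM and OSM+TGFB add nothing, since HP passed the filter through groups with OSM. With all 3 ligands, SERPINA1 was higher, 43.1-fold, and SAA1, SAA2 and LCN2 were lower (74.4%). SERPINA3 there, at 611, 790 and 427 CPM, overlapped PBS (0.05 ± 0.31, adjusted p = 0.886, and -0.039 under upper-quartile scaling).

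SERPINA1 was also the member called for other departures. It was 0.38 ± 0.10 in OSM+TGFB (edgeR adjusted p = 0.00801; 23.3% of all genes called), a call lost with rows as deposited (0.31, adjusted p = 0.0825). In EGF+OSM+TGFB it was -1.29 ± 0.15 (adjusted p = 1.2e-07; 48.0% of all genes). In EGF+TGFB it was 0.11 ± 0.11 (adjusted p = 0.471), and 0 of 6 members were called (29.8% of all genes). For the 3-way interaction, which is what remains of the log2 response to EGF+OSM+TGFB after single ligands and pairs are accounted for, 0 of 6 members were called by edgeR (3.90% of all genes), and SERPINA1 had 0.13 ± 0.14 (adjusted p = 0.724). For both of these contrasts 0 of 6 members had an unadjusted p under 0.05, and DESeq2 called 0. With the replicate number as a block, 2 members were called for the departure of EGF+TGFB. Without the block, SAA1 had 0.55 there (interval -0.02 to 1.11) and SAA2 0.63 (-0.19 to 1.44). SERPINA3 had 0.06 (-0.88 to 0.99) and LCN2 -0.36 (-1.48 to 0.77). The lack of calls therefore does not show that these responses add up. HP could not decide it, with 7 counts in PBS, 6 in EGF, 3 in TGFB and 5 in EGF+TGFB.

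Over the 24 h without added ligand, from T0 to PBS, 4 members rose and SERPINA1 fell (35.1% of all genes called). SERPINA3 was at 195, 194 and 133 CPM in T0, below all PBS libraries, and rose 3.37-fold (log2 1.75 ± 0.32, edgeR adjusted p = 2.8e-04). LCN2, at 20.4, 24.8 and 12.3 CPM in T0, rose 2.99-fold (1.58 ± 0.37). SAA2 rose 2.45-fold (1.30 ± 0.26) and SAA1 2.01-fold (1.01 ± 0.19). SERPINA1, at 45.04, 37.2 and 42.6 CPM in T0, fell by 1.42 on the log2 scale to PBS (SE 0.08, edgeR adjusted p = 7.3e-13). This comparison shares its PBS libraries with the comparisons of the ligands. Set beside T0, the EGF libraries were lower for SERPINA3, SAA1 and SAA2, and also for SERPINA1 (25.1 ± 0.705 against 41.6 ± 4.03 CPM). For LCN2 they overlapped T0 (16.2 ± 3.41 against 19.2 ± 6.37 CPM, SD, n = 3).

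Other acute-phase genes of the pathway were counted from lists compiled from general knowledge. Of 22 other positive acute-phase proteins, 15 passed the filter on low counts, and with OSM 10 were higher and 0 lower than in PBS, a share of called genes near the 63.4% over all genes. Their median log2 fold change was 2.90, against 0.00 over all genes. A gene detected only with OSM passed the filter through that group, so this count is a description. FGL1, a fibrinogen-like protein, was at 0.0248 ± 0.0250 CPM in PBS and 31.5 ± 3.62 CPM in OSM (SD, n = 3). FGG and FGA, chains of fibrinogen, had 0 counts in all PBS libraries and 301 and 121 in the OSM libraries together. Against a floor of 3 counts over the PBS group, FGG was at least 109-fold and FGA at least 43.8-fold higher; with both at their bound the list's median was again 2.90. FGL1, with 3 counts over PBS, had a ratio of 1348 (exact 95% counting interval 461 to 6540). On adding EGF to OSM, 12 of the 15 were lower and 1 higher (61.7% of all genes called), with a median of -2.23 against -0.03 over all genes, and FGL1 differed by -1.95 ± 0.20. FGA, FGB, FGG, FGL1 and LBP passed the filter through groups with OSM, so this count and median are descriptions too.

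Negative acute-phase proteins are those whose plasma level falls in inflammation. Of 7 such genes 3 were tested, and all 3 were lower with OSM, where 63.4% of all genes were called: AHSG (fetuin-A, -3.50 ± 0.93), RBP4 (retinol-binding protein, -2.25 ± 0.37) and TF (transferrin, -0.37 ± 0.12). AHSG was at 0.227 ± 0.0700 CPM in PBS and TF at 11.9 ± 1.09 CPM. On adding EGF to OSM 1 of the 3 was lower (61.7% of all genes called). The falls were not limited to OSM. EGF alone lowered 2 of the 3 (73.5% of all genes called), RBP4 by -2.41 ± 0.37 and TF by -0.88 ± 0.12. In EGF+TGFB 3 of the 3 were lower than in PBS (73.7%).

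Among 7 inducing ligands, 6 were tested, and with OSM 3 were higher and 2 lower (63.4% of all genes called), with a median of 0.06 (-0.0011 under upper-quartile scaling). IL11, a member of the interleukin-6 family, differed by 1.75 ± 0.25 and LIF, another, by -1.87 ± 0.23. IL6 had 0 counts in PBS and 13 in OSM, at least 4.70-fold higher against a floor of 3 counts over the group. It reached 14.1 ± 1.60 CPM with all 3 ligands.

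Of 8 receptors and kinases, all tested, 4 were higher with OSM and 3 lower (63.4% of all genes called). OSMR, the specific OSM receptor chain, rose from 79.9 ± 4.22 to 556 ± 46.1 CPM (log2 2.80 ± 0.07, edgeR adjusted p = 1.7e-20). IL1R1 (0.66), IL6ST (0.39) and TYK2 (0.25) were higher, and IL6R (-0.85), JAK2 (-0.80) and JAK1 (-0.65) lower, on the log2 scale. When EGF was added to OSM, 5 of the 8 were lower and 1 higher (61.7% of all genes called), and OSMR differed by -0.60 ± 0.07.

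Of 13 transcription factors and feedback genes 11 were tested, and 7 were higher and 4 lower with OSM (63.4% of all genes called). SOCS3 rose from 1.49 ± 0.319 to 165 ± 19.9 CPM (log2 6.77 ± 0.15). STAT3 rose from 283 ± 16.6 to 633 ± 73.5 CPM (1.16 ± 0.06) and CEBPD, a C/EBP factor, from 35.7 ± 7.08 to 83.0 ± 10.6 CPM (1.22 ± 0.21). NFKB1 (0.88), CEBPB (0.36) and RELA (0.33) were also higher, and CEBPA (-1.40), NFKBIZ (-0.78), STAT5A (-0.52) and PIAS3 (-0.35) lower. With EGF added to OSM, 7 of the 11 were lower and 0 higher, a share near the 61.7% called over all genes, among them STAT3 (-0.84 ± 0.06), CEBPD (-1.32 ± 0.21) and SOCS3 (-0.94 ± 0.10).

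Of 13 targets and receptors of the members 5 were tested, and with OSM 3 were lower and 0 higher, a share near the 63.4% called over all genes. HEPH, a ferroxidase related to CP, differed by -2.14 ± 0.40, LRP1, a receptor that clears protease-inhibitor complexes, by -1.82 ± 0.17 and MMP9, which LCN2 binds, by -0.79 ± 0.28. Of 9 neighbouring paralogs 3 were tested, and 2 were lower with OSM, also near that share. SERPINA5, in the same serpin cluster as SERPINA1 and SERPINA3, fell from 28.1 ± 5.25 to 3.38 ± 1.35 CPM (-3.04 ± 0.26). HPR differed by -2.94 ± 0.75, from 44 counts over the PBS libraries to 5 over the OSM libraries. It passed the filter on low counts through PBS, where it was highest, so this fall is a description and adds nothing to that count.

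The members' profiles over the 27 libraries differed from one another. As Pearson's r of log2 CPM, SAA1 and SAA2 had 0.934, SAA2 and SERPINA3 0.898, HP and SERPINA1 0.865, SAA1 and SERPINA1 0.190 and LCN2 and SERPINA1 -0.442. Libraries of a group share their treatment, so these are descriptions. Among 12653 other genes with a mean of at least 1 CPM, the profiles most like SERPINA1 were those of TCAF2 (0.981), SBNO2 (0.9753) and NECTIN1 (0.973). Those most like SERPINA3 were SOD2 (0.964), the mitochondrial superoxide dismutase, APOL6 (0.960) and PROS1 (0.945). SAA1 was followed most closely by RPL37 (0.978), GLRX (0.976) and RPS27 (0.971), where RPL37 and RPS27 encode ribosomal proteins. The correlation takes no account of the size of a change. Group means ran from 565 to 996 CPM for RPL37 and from 541 to 986 for RPS27, against 81.5 to 778 for SAA1.

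For SAA2 the nearest were IFNGR1 (0.977), CFB (0.970) and ZNF282 (0.965). CFB, complement factor B, moved from 47.7 ± 5.03 CPM in PBS to 357 ± 115 in OSM and 39.3 ± 11.2 in EGF+OSM. For LCN2 they were GCNT3 (0.947), KLK8 (0.941) and TCN1 (0.940), and for HP LRG1 (0.954), NFE2 (0.946) and SLURP2 (0.943). By Spearman's rank correlation the gene first for SERPINA1 stood at rank 64 and the gene first for HP at rank 59, and the 3 nearest genes of SERPINA1, SAA2 and HP were all replaced. Over the 9 group means the 3 nearest genes of LCN2 were all replaced. RPL37 and RPS27 were level at the first rank for SAA1 by Spearman's correlation.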

How the data were processed

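Polyadenylated RNA from 27 libraries of MCF10A cells (9 groups of 3, grouped by their labels) was sequenced with a stranded kit, per the labels' protocols. The deposited values are the authors' estimated counts per gene. The submitters' processing notes name Trim Galore 0.4.3, cutadapt 1.10, FastQC 0.11.5, kallisto 0.46.2 and R 3.5.0, and the builds GRCh38.p5 and hg38, without roles. The values were already whole, so rounding changed nothing. Rows without a symbol (7165, 0.324% of counts) kept their Ensembl identifiers.

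Genes with low counts were removed by filterByExpr, leaving 15575. edgeR 4.0.16 in R 4.3.3 was fitted to all libraries with a mean per group (TMM factors 0.867 to 1.12, robust quasi-likelihood, 18 residual degrees of freedom, biological coefficient of variation 7.83%). Benjamini-Hochberg adjustment covered all genes tested, over 22 contrasts. Intervals are 95%. At these depths the spread between libraries limits most values, and counting error limits HP and CP; without molecular identifiers, counting intervals are minimum errors. CPM and CPM per kb (canonical transcripts of GENCODE v44, GRCh38, which may differ from the authors' annotation) were computed here.

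Named were the 7 members, the 3 genes most like each (Pearson's r of log2 CPM with a prior count of 0.5), the receptors, kinases, transcription factors and feedback genes called for OSM, and of each other list the 3 with the largest called change for OSM. The values of 1 listed gene are not reported here. The members and lists were chosen with earlier results of these data known. Alternatives were DESeq2 1.42.0, other scalings, no filter, unsummed rows, only the groups compared, the replicate number as a block, a 2-fold limit and leaving out each library.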

Additional observations from a re-analysis of the deposited data

How the results depend on the processing

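Across the single-gene values reported, 2 of 811 alternative settings and 9 of 2835 values with a library left out turned the sign, all for changes that were not called. SERPINA3 with all 3 ligands against PBS was -0.039 under upper-quartile scaling and -0.18 to 0.26 with a library left out. SERPINA3 on adding TGFB to OSM was -0.14 to 0.38, the departure of EGF+OSM -0.10 to 0.34 for SAA1 and -0.44 to 0.18 for SAA2, and the departure of EGF+TGFB for SERPINA1 -0.023 with rows as deposited. The cause was not tested.

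The number of members called moved by over 1.5 times in some settings. With an added limit of 2-fold it was 0 for TGFB against PBS (2 without the limit), 0 for TGFB added to EGF (2), 1 for TGFB added to OSM (4), 1 for TGFB added to EGF+OSM (2) and 0 for the departure of OSM+TGFB (1), because these changes are small. Without a filter, and with rows as deposited, TGFB added to EGF gave 1, and with rows as deposited the departure of OSM+TGFB gave 0. DESeq2 gave 5 for OSM added to EGF+TGFB (3 by edgeR), 2 for the departure of EGF+OSM (1) and 2 for that of all 3 ligands (1). HP was among the members added in each of these, and it adds nothing, since it passed the filter through groups with OSM. With a library left out the number was 1 to 3 for TGFB against PBS, 1 to 2 for TGFB added to EGF and 1 to 2 for the departure of all 3 ligands. For the 3-way interaction, 607 of all genes were called in the fit reported, 1247 with the replicate block and 926 by DESeq2. In the order of group levels, on unscaled library sizes 5 of 9 groups kept their place for SERPINA3 and 7 of 9 for SAA1 and SAA2, and under upper-quartile scaling 7 of 9 for SERPINA3 and SAA2 and 5 of 9 for CP. Neither RLE factors nor upper-quartile scaling shifted the median of all genes by over 0.0940 on the log2 scale.

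The labels do not say what a replicate number marks. Libraries with the same number deviated from their group means with correlations of -0.166 to 0.609 (median 0.295), with 92 of 108 pairs over 0.1, and 27 of 27 libraries correlated best with their own number, which is a hint from the data and not the design. With the replicate number as a block the number of members called rose to 5 for OSM added to EGF+TGFB, 4 for TGFB added to EGF, 5 for TGFB added to EGF+OSM, 3 for the departure of EGF+OSM, 2 for that of EGF+TGFB, 2 for that of OSM+TGFB and 2 for that of all 3 ligands. Among the single-gene values reported, the block also called these. Against PBS they were SERPINA3 with TGFB (0.79, edgeR adjusted p = 5.4e-06) and with EGF+OSM (-0.42, adjusted p = 0.00122), SAA1 with OSM+TGFB (-0.32, adjusted p = 0.00179) and HP with all 3 ligands (2.66, adjusted p = 0.0108). On adding OSM they were LCN2 over EGF (-0.58, edgeR adjusted p = 0.0144), and SAA1 (0.51, adjusted p = 7.7e-05) and HP (3.003, adjusted p = 0.0214) over EGF+TGFB. With EGF added to OSM+TGFB it was LCN2 (-0.99, edgeR adjusted p = 2.7e-04). On adding TGFB they were SAA1 (-0.24, edgeR adjusted p = 0.0206) and LCN2 (-0.76, adjusted p = 0.00157) over EGF, LCN2 over OSM (-0.72, adjusted p = 0.00145), and SERPINA3 (0.45, adjusted p = 0.00105), SAA1 (-0.26, adjusted p = 0.0118) and SAA2 (-0.55, adjusted p = 6.0e-04) over EGF+OSM. For the departure of EGF+OSM it called SERPINA3 (0.39, edgeR adjusted p = 0.0452), and the remaining member of that count besides SERPINA1 was HP. HP passed the filter on low counts through groups with OSM, so its calls with the block add nothing to any of these counts. Depth limits HP and CP in groups without OSM, where a library held 0 to 6 counts.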
